A study of Rattus norvegicus with 32 samples.

Results

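The genes described here are those whose transcript levels in renal cortex kept every Sprague Dawley (SD) rat apart from every Zucker Diabetic Sprague Dawley (ZDSD) rat. A gene was a member if all 6 SD rats lay above, or all below, all 23 ZDSD rats, and if the strain means were at least 1.5 apart in log2 CPM (counts per 1000000 counts of the library). It also had to lie on chromosomes 1 to 20 and to have a mean log2 CPM of at least 0 in one strain, and genes on chromosome 20 starting under 8000000 were omitted. Of 26404 annotated genes, 13027 met the conditions on position and level, and 88 of these (0.676%) were members. The members were chosen by the strain difference itself, so that difference is described and not tested.

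The series profiled renal cortex of rats aged 37 weeks by RNA sequencing. SD rats were healthy controls that had no operation, and the ZDSD rats, a model of diabetic kidney disease, had sham surgery (SHAM, laparotomy alone), Roux-en-Y gastric bypass (RYGB), or RYGB with fenofibrate, metformin, ramipril and rosuvastatin (RYGB-FMRR). All 3 ZDSD groups were also given insulin degludec before surgery, and they were operated on at different ages, the SHAM rats youngest. Age at surgery therefore cannot be told apart from treatment in comparisons among the ZDSD groups. The libraries used were from 6 SD, 7 SHAM, 9 RYGB and 7 RYGB-FMRR rats. Strain, diabetes and surgery cannot be told apart in the comparison of SD with ZDSD, since every ZDSD rat had been operated on and no SD rat had.

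ZDSD rats become obese and diabetic with an intact leptin receptor, and they were bred partly from Sprague Dawley stock. Sprague Dawley is an outbred stock, so its animals need not carry the same alleles at a locus. Reads of both strains were aligned to rn5, a genome assembled from the Brown Norway rat, which is neither strain. The files name genes by Ensembl identifier only, so genes are given here by position in rn5, and what each gene does is not stated.

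Total counts of the 29 libraries ranged from 14502127 to 27597901. The 2 other SHAM libraries held 121511 and 101534 counts and took no part in choosing the members, and the values of members in them are given at the end. No 2 libraries were identical.

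Members were found in both directions. There were 50 genes higher in SD (0.384% of the 13027) and 38 higher in ZDSD (0.292%). The median difference of the strain means was 2.37 on the log2 scale among genes higher in SD and -2.10 among genes higher in ZDSD, each as SD minus ZDSD. Most large differences were in genes higher in SD, with 18 of the 23 members whose means were at least 3 apart being higher in SD and 5 higher in ZDSD. At the other end, 27 members had means less than 2 apart, of which 14 were higher in SD and 13 higher in ZDSD.

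**Figure D1:**
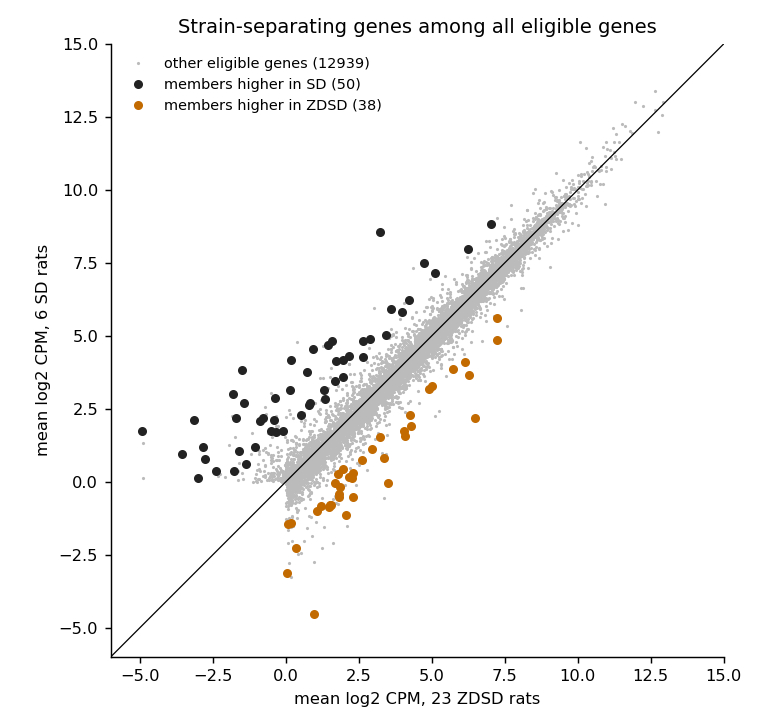
Mean log2 CPM of each eligible gene in 23 ZDSD rats (horizontal axis) and 6 SD rats (vertical axis), with the 50 members higher in SD in black, the 38 higher in ZDSD in orange and all other eligible genes in grey. The line marks equal means, and the members lie on both sides of it, with few of them among the genes with the most reads.

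The space between the strains was often narrow. The gap between the nearest SD rat and the nearest ZDSD rat had a median of 0.53 over the members and ran from 0.022 to 3.41. It was at least 1 in 18 members, 13 higher in SD and 5 higher in ZDSD, and under 0.2 in 20. Of the 13027 eligible genes, another 309 kept the strains apart with means less than 1.5 apart, and 131 had means at least 1.5 apart with strains that overlapped. A further 22 genes on these chromosomes met both conditions but were below the level limit, and 2 genes at the start of chromosome 20 passed and were omitted.

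Just inside the limit of 1.5 lay chr11:71394318-71405876 with a difference of 1.51, chr13:95173347-95198290 with -1.52 and chr5:89013128-89158671 with -1.54. Just outside lay chr1:7100639-7224740, chr10:18444651-18663340 and chr4:135734782-135761071, each with a difference of -1.49. The limit therefore divides genes whose strain means are nearly the same distance apart.

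The largest difference belonged to ENSRNOG00000020057 at chr1:82787111-82789825 on the reverse strand, a gene of 5 exons. The SD rats had 20, 36, 80, 90, 95 and 470 counts, with SD rat 6 the highest. Of the 23 ZDSD rats, 18 had 0 counts and the others had 1 or 2, which makes 7 counts in all. Its log2 CPM ran from -0.22 to 4.49 in SD and from -5.66 to -3.12 in ZDSD. Pooled over each strain's rats, the level was 5.54 CPM in SD and 0.0149 in ZDSD, with an exact 95% Poisson interval of 0.00598 to 0.0306 that covers counting error only. The gene was thus close to absent from the ZDSD libraries at this depth, and easily detected in all SD rats.

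ENSRNOG00000046170 at chr1:13504948-13508160 had the second largest difference among genes higher in SD, 5.34. Its counts in the SD rats were 3994, 4429, 7729, 8456, 8741 and 47841. In the ZDSD rats its log2 CPM ran from 2.16 to 4.16 with a median of 3.27, against 7.56 to 10.96 with a median of 8.26 in SD. The gap of 3.41 between the nearest rats was the widest of all members. SD rat 2 stood well above the other SD rats, and the gene was far from silent in ZDSD.

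Among genes higher in ZDSD, the largest difference was -5.48, in ENSRNOG00000015666 at chr19:32551493-32622091, a gene of 30 exons. The SD rats had 0, 0, 0, 1, 2 and 2 counts, and every ZDSD rat had between 12 and 75. Pooled levels were 0.0350 CPM in SD (exact 95% Poisson interval 0.0114 to 0.0817) and 2.04 CPM in ZDSD. The 3 ZDSD groups overlapped widely in this gene, with mean log2 CPM of 0.77 for SHAM, 1.26 for RYGB and 0.76 for RYGB-FMRR.

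The next was ENSRNOG00000037374 at chr7:116450238-116453537, with a difference of -4.33. Here 5 SD rats had 61, 66, 79, 82 and 90 counts and SD rat 6 had 597, while the ZDSD rats had between 884 and 2979. On the log2 CPM scale SD rat 6 lay at 4.84, the other SD rats at 1.36 to 1.77, and the ZDSD rats at 5.77 to 7.19. SD rat 6 was therefore closer to the ZDSD rats than to its own strain.

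**Figure D2:**
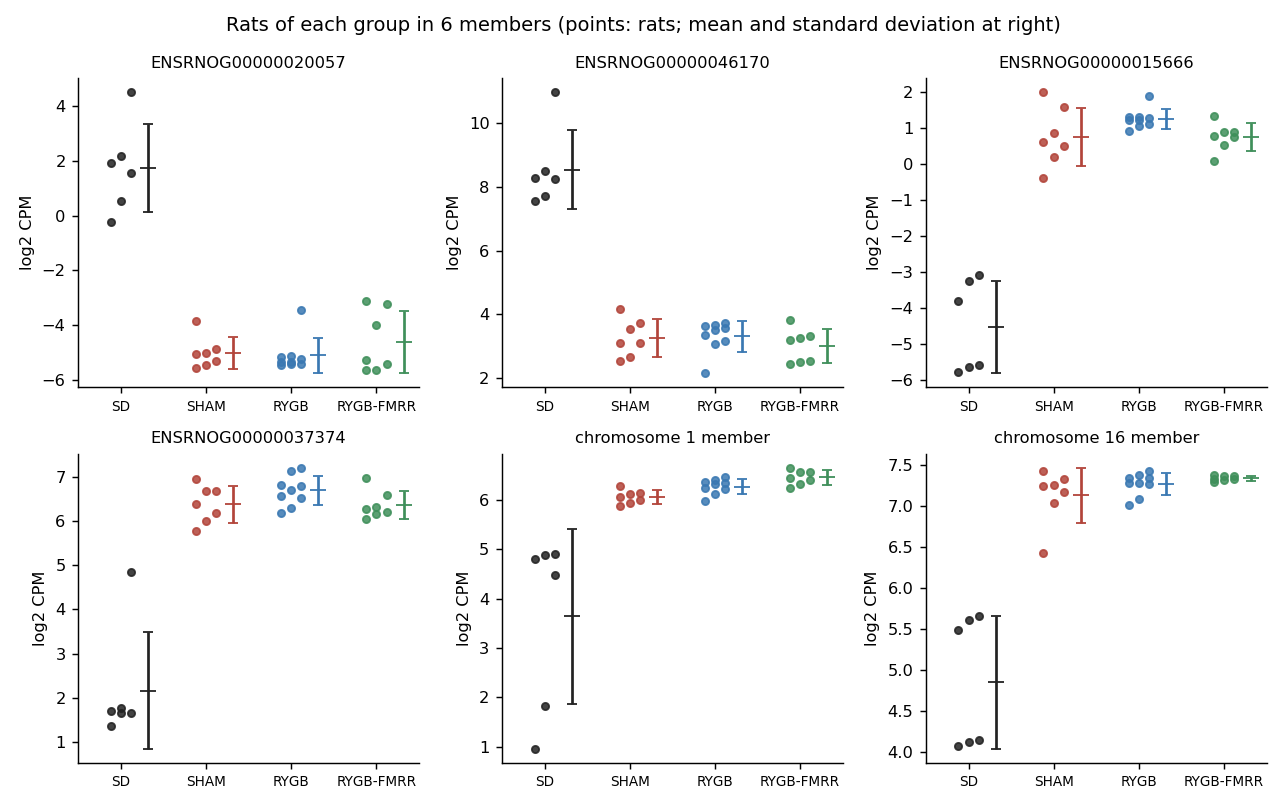
Log2 CPM (vertical axes) of each rat in the 4 groups for 6 members, with the group mean and standard deviation to the right of the points. The 6 SD points lie above every ZDSD point for the 2 genes higher in SD and under every ZDSD point for the other 4, and SD rat 6 lies at 4.84 in ENSRNOG00000037374, apart from its strain.

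The other genes with the largest differences were spread over 6 chromosomes. Those higher in SD were chr1:218367084-218446952 with a difference of 5.34, chr13:76606608-76608212, a single-exon gene, with 5.28, and chr1:290029537-290037029 with 4.84. They were followed by chr7:116269085-116273202 with 4.51, chr1:217478056-217666989 with 4.16 and chr1:137657430-137732099 with 4.02. Those higher in ZDSD were chr13:97359449-97453188 with -3.56, chr11:78170405-78188507 with -3.20 and chr7:15045084-15061271 with -3.17. The remaining ones were chr8:123318257-123502481 with -2.81, chr10:89872923-89877057 with -2.63 and chr1:62626294-62626824 with -2.62.

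The spread behind these differences was uneven. At chr1:218367084-218446952 the SD rats ran from 2.78 to 4.25 and the ZDSD rats from -2.63 to -0.60, a gap of 3.38 on the log2 CPM scale. At chr13:97359449-97453188 the SD rats ran from -0.89 to 1.18 and the ZDSD rats from 1.71 to 4.89, so a gap of 0.52 stood beside a far larger difference of means. SHAM rat 7 and RYGB rat 9, at 1.71 and 1.74, were the ZDSD rats nearest to SD in that gene.

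A strain was called off in a gene where its mean was under 0.1 CPM. By that limit 3 of the 88 members were off in a strain, 2 in ZDSD and 1 in SD. Of these, ENSRNOG00000020057 and ENSRNOG00000015666 are described above. The other was chr7:116269085-116273202, off in ZDSD, with 40 counts over 23 rats of which 5 had 0, and 18 to 64 counts in each SD rat. SHAM rat 7 held 7 of the 40 counts. No member had 0 counts in every rat of a strain, and 11 had 0 counts in at least 1 rat of the lower strain, 10 of them higher in SD. In 49 members, 28 higher in SD and 21 higher in ZDSD, the lower strain still had a mean log2 CPM of at least 0. Most members were therefore differences of degree between strains that both gave reads.

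The other members with the highest read numbers, not corrected for gene length, had smaller differences. Among genes higher in SD, chr14:22455325-22493180 ran from 8.11 to 9.37 in SD and from 5.86 to 7.82 in ZDSD on the log2 CPM scale. The values were 7.55 to 8.18 against 5.21 to 7.32 at chr10:58749467-58788522, and 6.06 to 8.11 against 3.70 to 5.39 at chr7:71230580-71245358. At chr7:123601169-123605722 they were 5.75 to 8.01 against 3.15 to 5.71, which left a gap of only 0.042. Among genes higher in ZDSD, chr16:48028067-48150740 ran from 4.07 to 5.66 in SD and from 6.42 to 7.43 in ZDSD. At chr2:262090879-262102977 the ranges were 4.94 to 6.08 and 6.23 to 8.62, and at chr8:47022640-47046713 they were 3.79 to 4.48 and 5.43 to 6.79.

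Some members divided the SD rats. Rats of one strain left an empty step of at least 1.5 on the log2 CPM scale in 6 members for SD, 4 of them higher in ZDSD, and in 2 members for ZDSD, both higher in SD. At chr1:62626294-62626824, a single-exon gene, SD rats 1 and 4 lay at 1.82 and 0.95 and the other SD rats at 4.49 to 4.90, while the ZDSD rats were all within 5.87 to 6.64. At chr1:196829189-196840820, SD rats 1 and 2 lay at -4.01 and -2.77 and the other SD rats at -0.03 to 1.06, close below the lowest ZDSD rat at 1.10. This gene overlaps another on the same strand, and reads in both were not counted. The step in ENSRNOG00000015666 separated 0 counts from 1 or 2 and is within counting error. A narrower step stood at chr16:48028067-48150740, where SD rats 4, 5 and 6 lay at 4.07 to 4.15 and SD rats 1, 2 and 3 at 5.49 to 5.66. That member was picked for its high level by the rule for naming genes, and its step was noticed after its values were seen.

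The lower or higher rats were not the same from gene to gene. The SD rat nearest to ZDSD was SD rat 2 in 23 members, SD rats 5 and 6 in 19 each, SD rat 1 in 12, SD rat 4 in 10 and SD rat 3 in 5. The ZDSD rat nearest to SD was SHAM rat 7 in 16 members, and every other ZDSD rat in 1 to 6. By group it was a SHAM rat in 43 members, a RYGB rat in 27 and a RYGB-FMRR rat in 18. Of the members higher in SD, 44 of 50 had a wider range over the 23 ZDSD rats than over the 6 SD rats, as had 28 of the 38 higher in ZDSD. More rats give a wider range, and the standard deviation was larger in ZDSD in 38 of 50 and 21 of 38.

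**Figure D3:**
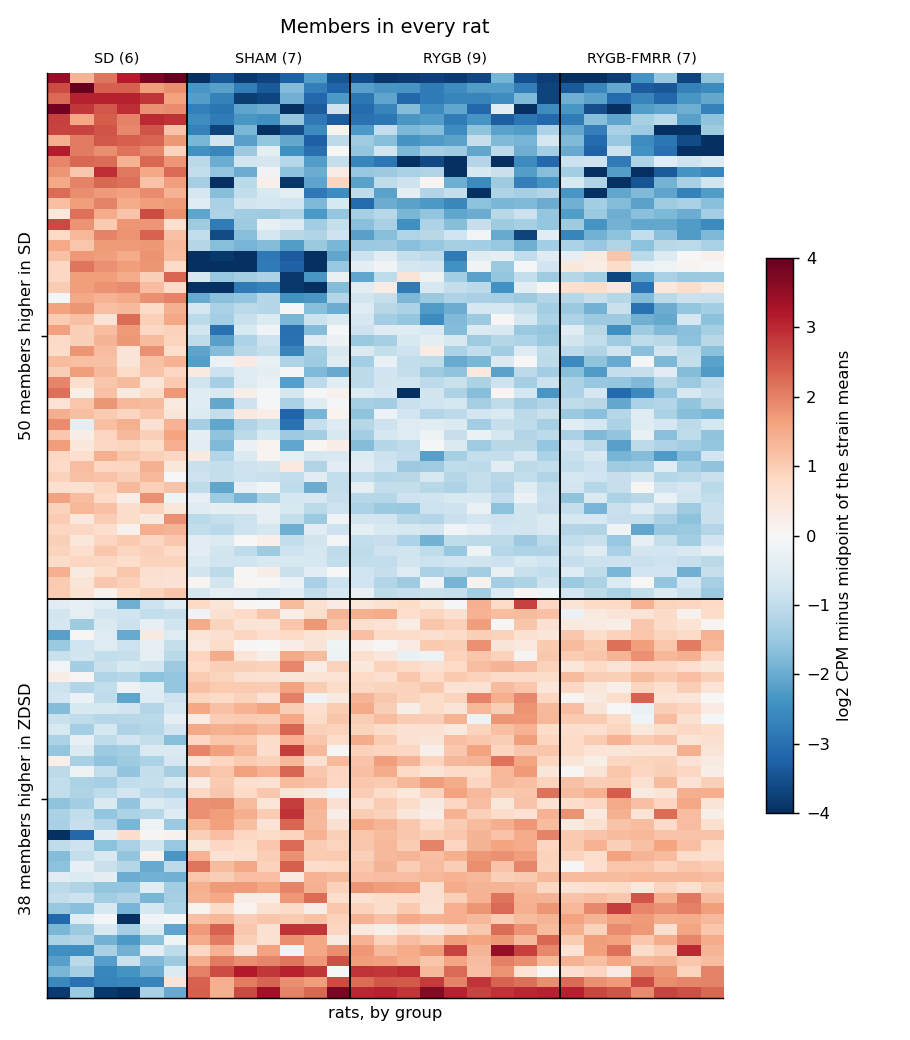
Log2 CPM of the 88 members (rows) in 29 rats (columns, by group), each minus the midpoint of the strain means, with red above and blue below. Rows run from the largest to the smallest difference among the 50 members higher in SD and from the smallest to the largest among the 38 higher in ZDSD; the dark SHAM cells among members higher in SD that fade in RYGB and RYGB-FMRR belong to 3 neighbouring genes of chromosome 1.

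Members were spread over 18 chromosomes, with none on chromosomes 12 and 15. Chromosome 1 held the most, 17 of its 1708 eligible genes (0.995%), and chromosome 13 the highest share, 8 of 417 (1.92%). On chromosome 8 all 4 members were higher in ZDSD. Joining members whose starts lay within 1 Mb of each other gave 11 blocks that held 24 members, 2 blocks of 3 and 9 of 2. The other 64 members stood alone. In 7 blocks the members had the same direction, and in 4 they did not.

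With members left out, genes near a member and genes elsewhere were separated by strain at close to the same rate. The genes left out include the 24 members in blocks, so these rates do not show whether members lie close together. Among eligible genes within 1 Mb of a member that were not members, 33 of 1367 (2.41%) kept the strains apart with a difference of any size. Among genes farther away this was 276 of 11572 (2.39%).

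The 3 members at chr7:116269085-116453537 stood within 184 kb. ENSRNOG00000037374, described above, was higher in ZDSD, while chr7:116269085-116273202 and chr7:116315542-116320534 were higher in SD. In the latter the SD rats ran from 4.90 to 6.24 and the ZDSD rats from 3.69 to 4.46 on the log2 CPM scale. SD rat 6 was the SD rat nearest to ZDSD in all 3 genes, at -0.18, 4.90 and 4.84 in order of position, with the nearest other SD rats at 0.62, 5.82 and 1.77. The members of a block shared their nearest SD rat in 4 of the 11 blocks and their nearest ZDSD rat in 1.

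In 3 of the other blocks described gene by gene, both members were higher in SD. At chr1:217478056-218446952 both members were among the largest differences, with gaps of 2.15 and 3.38 between the nearest rats. At chr7:71230580-71340908 the differences were 2.73 and 2.51. At chr5:65288586-65903614 they were 2.16 and 3.60, and the ZDSD rats were widely spread: at chr5:65898607-65903614 RYGB-FMRR rat 4 lay at -3.08 and SHAM rat 7 within 0.27 of the lowest SD rat. At chr1:196829189-197106548 both members were higher in ZDSD, with differences of -2.31 and -2.27. Of the remaining blocks, chr10:58749467-58851089 held 2 genes higher in SD, chr20:9418122-9858712 held 2 higher in ZDSD, and chr9:3308063-4025610, chr9:18881297-19237355 and chr18:29215748-29672442 held 1 of each.

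In structure the members resembled the eligible genes as a whole. Their median exonic length was 2106 bases against 2052 over all eligible genes, and the median number of exons was 9 in both. Single-exon genes made up 4.55% of members and 5.07% of eligible genes, and 7.95% and 10.2% overlapped a gene on the opposite strand. By direction, the median number of exons was 7 in members higher in SD and 11 in those higher in ZDSD. Overlap with a gene on the opposite strand was 4% (2 genes) and 13.2% (5 genes), and these differences were not tested. Members differed from eligible genes in level: 53.4% of members had a mean log2 CPM under 3 in their higher strain, against 22.5% of all eligible genes.

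The comparisons among ZDSD rats were not used to choose the members, and they were tested in edgeR across 14776 genes, all 88 members included. They compare RYGB, and RYGB with drugs, with sham surgery in genes that separate the strains. The rule did, however, use every ZDSD rat, and it favours genes in which these rats lie close together. A gene was called where its fold change was at least 1.3 and its Benjamini-Hochberg adjusted p-value under 0.05. Of the 88 members, 11, all higher in SD, passed the filter on low counts only because the SD rats were in the model.

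In RYGB compared with SHAM, 9 of the 88 members (10.2%) were called, against 5.35% of all genes tested. In RYGB-FMRR compared with SHAM, 20 (22.7%) were called, against 12.1%. In RYGB-FMRR compared with RYGB, 10 (11.4%) were called, against 4.56%. The 3 comparisons share groups of rats, and 63 members were called in none of them. By the adjusted p-value alone, without the fold change limit, the numbers of members called were again 9, 20 and 10. The shares of all genes tested were then 12.9%, 21.9% and 11.5%, so the higher share in members depended on the fold change limit. The median absolute log2 fold change was 0.31, 0.46 and 0.31 in members and 0.12, 0.14 and 0.11 over all genes tested, in the same order. An unadjusted p-value under 0.05 was found for 29.5%, 38.6% and 20.5% of members and for 28.4%, 34.2% and 26.3% of all genes. In a model of the ZDSD rats only, 77 members passed the filter on low counts. Of these, 11, 18 and 8 were called, against 5.27%, 12.1% and 4.62% of all genes tested.

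Called members moved both toward the SD mean and away from it. In RYGB compared with SHAM, 5 moved toward it and 4 away, where 2.35% and 3% of all genes tested were called in those directions. In RYGB-FMRR compared with SHAM the numbers were 12 and 8, beside 6.1% and 6.03% of all genes. In RYGB-FMRR compared with RYGB they were 7 and 3, beside 2.25% and 2.31%. All 88 members enter these numbers, the 11 that passed the filter on low counts only through the SD rats among them. No split by direction was made without those 11. The direction is not independent of the rule, because the same ZDSD rats enter the strain mean.

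The largest changes from SHAM were in the 3 members at chr1:100371040-101050871, all on the reverse strand, all of 5 exons and all higher in SD. In chr1:101046494-101050871 the SHAM rats had 1, 3, 3, 4, 4, 8 and 12 counts, and the RYGB rats 9 to 50. RYGB-FMRR rats had 35 to 143 counts and SD rats 154 to 248. In mean log2 CPM this was -2.06 ± 1.10 in SHAM (standard deviation, n = 7), 0.70 ± 0.75 in RYGB (n = 9), 1.61 ± 0.70 in RYGB-FMRR (n = 7) and 3.16 ± 0.26 in SD (n = 6). It rose in RYGB compared with SHAM by 2.72 ± 0.39 (log2 fold change ± standard error, edgeR adjusted p = 5.03e-05) and in RYGB-FMRR compared with SHAM by 3.75 ± 0.39 (adjusted p = 4.98e-08). It was also higher in RYGB-FMRR than in RYGB, by 1.03 ± 0.29 (adjusted p = 0.0175). The groups thus stood in the order SHAM, RYGB, RYGB-FMRR, SD.

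The other 2 genes of the block gave the same order of means. In chr1:100371040-100375077 the SHAM rats had 0, 0, 1, 1, 2, 4 and 9 counts, against 6 to 32 in RYGB, 31 to 57 in RYGB-FMRR and 57 to 169 in SD. It rose by 2.96 ± 0.47 in RYGB (adjusted p = 0.000162) and by 3.89 ± 0.46 in RYGB-FMRR (adjusted p = 4.73e-07), each compared with SHAM. In chr1:100395968-100399987 the SHAM rats had 0 to 2 counts, the RYGB rats 1 to 13, the RYGB-FMRR rats 1 to 20 and the SD rats 17 to 50. It rose by 3.08 ± 0.68 (adjusted p = 0.00333) and 4.22 ± 0.62 (adjusted p = 1.27e-05). Neither gene was called in RYGB-FMRR compared with RYGB. The log2 fold changes there were 0.93 ± 0.32 (edgeR adjusted p = 0.0580) and 1.15 ± 0.39 (adjusted p = 0.0567) in order of position. SHAM rat 7 was the highest SHAM rat in all 3 genes, and of the 16 rats with RYGB, with or without drugs, 15, 13 and 15 lay above it in order of position.

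These 3 genes only just met the rule. The lowest SD rat exceeded the highest ZDSD rat, a RYGB-FMRR rat in each, by 0.022, 0.026 and 0.056. They were also the 3 members whose group means differed among ZDSD groups by at least as much as the strains did. Both genes at the near end of the block, 780 exonic bases each, have the same exon number and length. Whether they are near-identical copies was not tested, and reads that mapped to both would not have been counted.

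**Figure D4:**
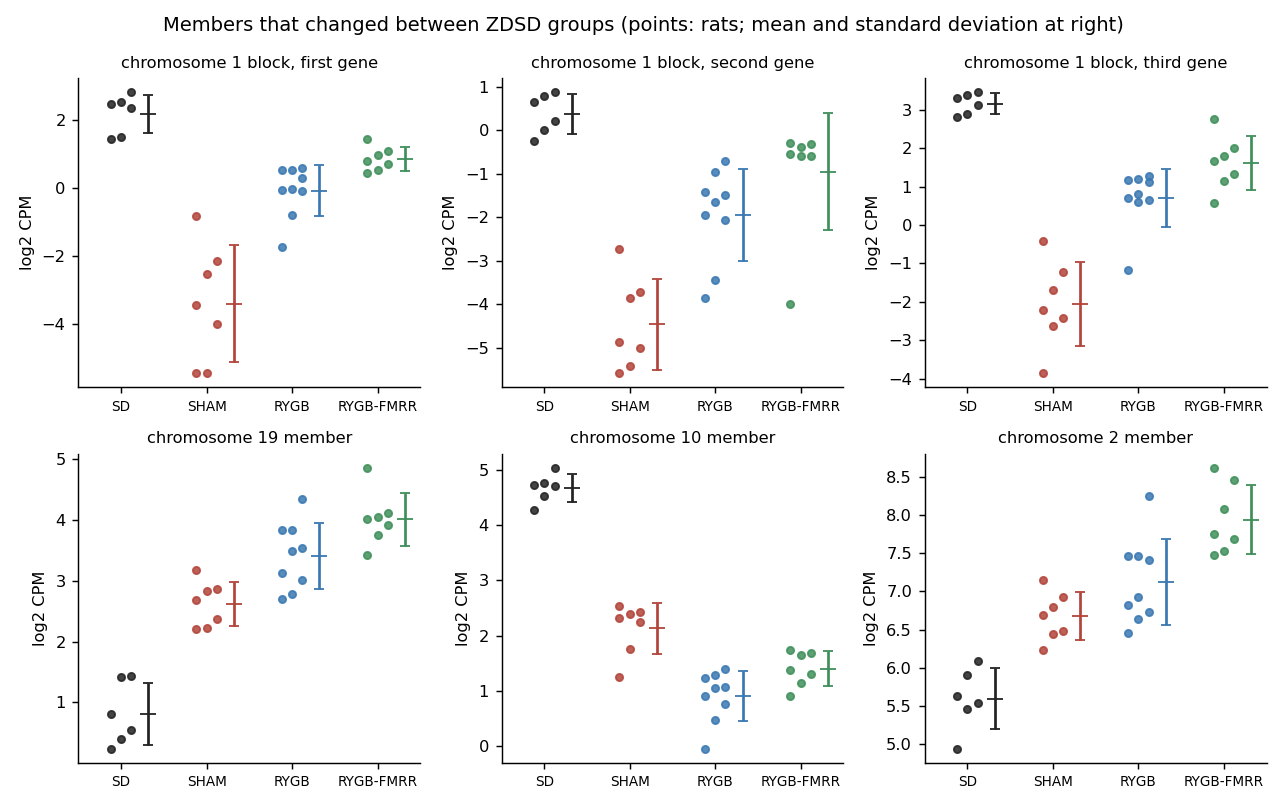
Log2 CPM (vertical axes) of each rat in the 4 groups, with the group mean and standard deviation to the right, for the 3 members at chr1:100371040-101050871 (upper row, in order of position) and for 3 other members with small adjusted p-values (lower row). In the upper row the means climb from SHAM to RYGB to RYGB-FMRR, though rats of these groups overlap. The highest RYGB-FMRR rats there reach just below the lowest SD rat. In the lower row the means of RYGB and RYGB-FMRR lie farther from SD than that of SHAM.

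In other members the ZDSD groups moved away from SD. At chr19:61033234-61101460 the SD rats ran from 0.24 to 1.43 and the SHAM rats from 2.21 to 3.17, with means of 2.62 (SHAM), 3.41 (RYGB) and 4.01 (RYGB-FMRR). It rose in RYGB compared with SHAM by 0.87 ± 0.23 (adjusted p = 0.0124), in RYGB-FMRR compared with SHAM by 1.54 ± 0.24 (adjusted p = 2.94e-05) and in RYGB-FMRR compared with RYGB by 0.67 ± 0.22 (adjusted p = 0.0438). At chr2:262090879-262102977 the means were 5.59 for SD, 6.67 for SHAM, 7.13 for RYGB and 7.94 for RYGB-FMRR. It rose in RYGB-FMRR by 1.42 ± 0.24 compared with SHAM (adjusted p = 9.36e-05) and by 0.85 ± 0.22 compared with RYGB (adjusted p = 0.0121).

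A pair of genes higher in SD was lower still in RYGB and RYGB-FMRR than in SHAM. At chr10:14547465-14605140 the SD rats ran from 4.27 to 5.03, and the means were 2.13 for SHAM, 0.90 for RYGB and 1.40 for RYGB-FMRR. The log2 fold change was -1.21 ± 0.18 in RYGB (adjusted p = 6.53e-05) and -0.65 ± 0.19 in RYGB-FMRR (adjusted p = 0.0123), each compared with SHAM. It was 0.56 ± 0.18 in RYGB-FMRR compared with RYGB (adjusted p = 0.0449). At chr10:58749467-58788522 it was -0.82 ± 0.17 in RYGB (adjusted p = 0.00203) and -0.50 ± 0.18 in RYGB-FMRR (adjusted p = 0.0464), each compared with SHAM. Both genes overlap another on the opposite strand, and counting was by strand.

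At chr6:117987407-117994244, higher in SD, RYGB alone stood apart. The means were 4.16 for SD, 0.91 for SHAM, -1.09 for RYGB and 1.08 for RYGB-FMRR. It fell in RYGB compared with SHAM, with a log2 fold change of -1.70 ± 0.37 (adjusted p = 0.00304), and was higher by 2.04 ± 0.36 in RYGB-FMRR compared with RYGB (adjusted p = 0.000279). RYGB rat 6 lay among the SHAM rats, and RYGB-FMRR rat 4, at -0.65, among the RYGB rats.

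Genes higher in ZDSD also moved toward SD. At chr3:119797486-119811427 the SD rats ran from 1.92 to 2.67, and the means were 4.68 for SHAM, 4.09 for RYGB and 3.97 for RYGB-FMRR. It fell by 0.59 ± 0.15 in RYGB (adjusted p = 0.00854) and by 0.65 ± 0.16 in RYGB-FMRR (adjusted p = 0.00374). At chr9:19202532-19237355 the SD rats ran from 1.53 to 2.65, the SHAM rats from 4.01 to 5.09 and the RYGB-FMRR rats from 3.53 to 4.05. It fell in RYGB-FMRR by 0.72 ± 0.16 compared with SHAM (adjusted p = 0.00139) and by 0.57 ± 0.15 compared with RYGB (adjusted p = 0.0110). At chr13:97359449-97453188 it fell by 1.15 ± 0.42 in RYGB-FMRR compared with SHAM (adjusted p = 0.0468).

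The rule used every rat of the 3 ZDSD groups, so group means far from SD were built into the choice of members. The values that follow describe the members and do not test whether treatment left them apart from SD. Group means of the 3 ZDSD groups lay within 0.5 of each other in 36 members and at least 1 apart in 13. Taken group by group, the SD mean was less than 1.5 from the SHAM mean in 11 members, from the RYGB mean in 3 and from the RYGB-FMRR mean in 5. The median absolute difference from SD was 2.33 for SHAM, 2.23 for RYGB and 2.32 for RYGB-FMRR.

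The 2 low SHAM libraries gave a view of members in rats that the rule had not used. Among members for which at least 5 counts were expected in the library at the mean level of the higher strain, SHAM rat 9 was nearer to the ZDSD mean in 14 of 14. SHAM rat 8 was nearer to ZDSD in 9 of 14, with all 6 genes higher in ZDSD on the ZDSD side and 3 of the 8 higher in SD. Genes higher in SD met the limit of 5 counts at the SD level, and fewer counts were expected of them at the ZDSD level. Their side can therefore turn on a few counts. Summed over the 38 genes higher in ZDSD, the levels were 905 CPM in SHAM rat 8 (exact 95% Poisson interval 744 to 1091) and 660 in SHAM rat 9 (511 to 838). The SD rats had 154 to 225 and the ZDSD rats used 738 to 1073. Over the 50 genes higher in SD they were 691 (551 to 856) and 414 (298 to 559), against 1931 to 3468 in SD and 287 to 576 in ZDSD. Both libraries thus lay with ZDSD or near it in the sums, although SHAM rat 8 divided the genes higher in SD. The sums are weighted to the members with the most reads. In SHAM rat 8, chr14:22455325-22493180 and chr10:58749467-58788522 held 19 and 17 of the 84 counts over genes higher in SD.

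**Figure D5:**
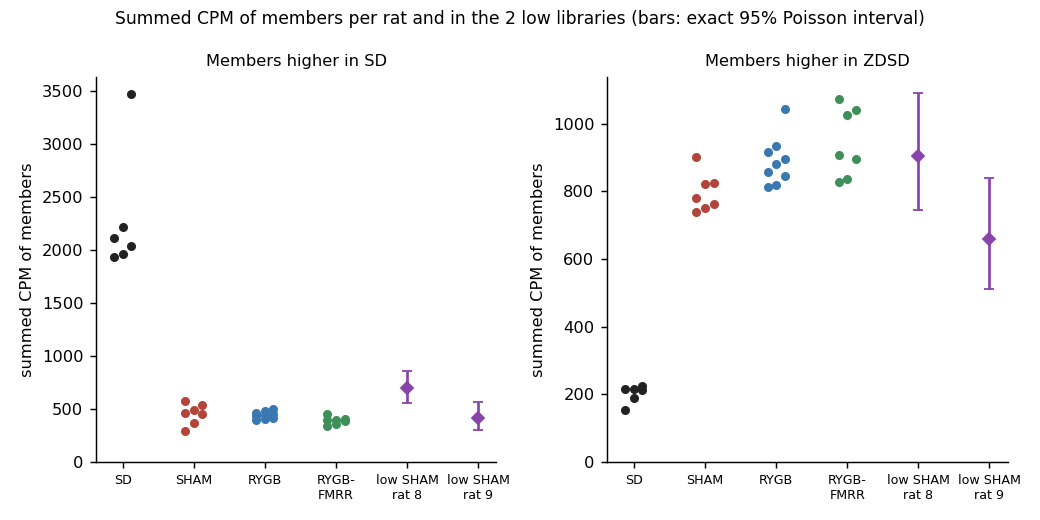
Summed CPM (vertical axes) of the 50 members higher in SD (left) and the 38 higher in ZDSD (right) in each rat, with the 2 low SHAM libraries as diamonds with exact 95% Poisson intervals. On the left the SD rats lie at 1931 to 3468 and the other points at 287 to 691; on the right the SD rats lie at 154 to 225 and the other points at 660 to 1073.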

How the data were processed

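Renal cortical RNA was sequenced by the authors from total RNA with a stranded, ribosomal RNA depleted library kit. Per the labels and the paper's methods, reads were checked with FastQC, trimmed with Trim Galore, aligned with STAR to rn5 and counted with featureCounts 1.6.4, in pairs, on the reverse strand and over exons of Ensembl genes. Reads that mapped to several places or overlapped several genes were not counted. The authors deposited the raw counts in a file for each rat, without normalizing them. Of 32 rats listed, 1 RYGB-FMRR rat was not analysed here. No table used here pairs the identifiers with symbols, so lists of gene families and of cell type markers could not be applied, the labelled tissue could not be checked against its markers, and no sequences are shown.

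Log2 CPM was log2 of 1000000 × (count + 0.5)/(total + 1), with 2 libraries of total under 1000000 left out. The members, lists and limits were chosen with earlier results of these data known. Genes described singly were the 8 largest differences and 5 highest levels in each direction, genes off in a strain, members of the 6 blocks with most members, and the 10 called members with the smallest adjusted p-values. At most 2 identifiers are printed per direction, and other genes are given by position.

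ZDSD groups were compared by the quasi-likelihood test of edgeR 4.0.16 under R 4.3.3, with TMM normalization, filterByExpr (minimum count 10) and all 4 groups of 29 rats in one model. Standard errors are the absolute log2 fold change over the square root of F. Fold changes use edgeR's prior count, so those of genes with few reads depend on it. Rats are the replicates. The fit and the rule were tested on simulated counts. Alternatives were other limits, library sizes, rats and tests, DESeq2 1.42.0 included.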

Additional observations from a re-analysis of the deposited data

Results flagged for a closer look

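Members described one by one were examined in each group of 6 to 9 rats, 152 groups in all with the total counts, for a rat whose gap to its neighbour was large against the range of its group (Dixon's test). Chance flags about 1 in 20 groups, which is 7.6 of 152, and 20 were found. Values are log2 CPM.

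Among SD rats, SD rat 6 was apart at 4.90 (lowest) at chr7:116315542-116320534 and at 4.84 (highest) at chr7:116450238-116453537, neighbouring genes of opposite direction. SD rat 2 was highest at chr1:13504948-13508160, at 10.96 (47841 counts), and lowest at chr10:58749467-58788522, at 7.55. SD rat 1 was lowest at chr7:71230580-71245358, at 6.06.

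Among SHAM rats, SHAM rat 5 was highest at chr3:119797486-119811427, at 5.61, and lowest at chr14:22455325-22493180, at 5.97, and at chr16:48028067-48150740, at 6.42. SHAM rat 7 was lowest at chr13:97359449-97453188, at 1.71. SHAM rat 6 was highest at chr7:116315542-116320534, at 4.46, and at chr1:82787111-82789825, at -3.85, which is 1 count.

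Among RYGB rats, RYGB rat 5 was lowest at chr1:101046494-101050871, at -1.17, RYGB rat 9 at chr1:13504948-13508160, at 2.16, and RYGB rat 3 at chr5:65288586-65346162, at -5.44 (0 counts). RYGB rat 4 was highest at chr7:116315542-116320534, at 4.25, and at chr19:32551493-32622091, at 1.90, and RYGB rat 7 at chr1:82787111-82789825, at -3.45 (1 count). Among RYGB-FMRR rats, RYGB-FMRR rat 5 was lowest at chr1:100395968-100399987, at -3.99 (1 count), and at chr7:71230580-71245358, at 4.39, and RYGB-FMRR rat 4 at chr6:117987407-117994244, at -0.65. The causes were not tested.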

How the results depend on the processing

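The number of members depended on the limits and on the rats used. With the 2 low SHAM libraries included there were 53 members, 13 of them higher in SD, since a count of 0 in a small library gives a high log2 CPM. A difference of at least 1 gave 145, 72 of them higher in ZDSD, and a difference of at least 2 left 25 higher in ZDSD. Against SHAM rats alone there were 130, with more higher in ZDSD (76) than in SD (54), the opposite of the 38 and 50 against all ZDSD rats. Against RYGB rats alone there were 157 (90 higher in SD, 67 in ZDSD), and against RYGB-FMRR rats alone 223 (135 and 88), with fewer rats to separate. Of the 88 members, 76, 85 and 82 were found against SHAM, RYGB and RYGB-FMRR alone. TMM library sizes gave 91 genes, 82 of them among the 88. Leaving out each rat in turn gave 86 to 115 members, 49 to 67 higher in SD and 36 to 48 higher in ZDSD, with the most without SD rat 6. No member was off if that required 0 counts in every rat, against 3 by the mean. Numbers of members called between ZDSD groups stayed within 1.5 times under every alternative tried: from 9 to 12 for RYGB against SHAM, from 14 to 21 for RYGB-FMRR against SHAM and from 8 to 12 for RYGB-FMRR against RYGB. The share of all genes called moved more, from 2.70% to 12.9%, 6.38% to 21.9% and 2.25% to 11.5% in the same order. It was lowest without the filter on low counts and highest by the adjusted p-value alone, where members were called at no clearly higher rate than all genes. Without SD rats in the model, 11 members, all higher in SD, failed the filter on low counts. Of 115 log2 fold changes of single members under alternatives, 110 stayed called, 5 missed the threshold and 0 changed sign; the 5 were at chr19:61033234-61101460, chr10:14547465-14605140 and chr10:58749467-58788522. No paired analysis was possible because each rat has its own number in the labels, shared with no other group.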
